A study of Mus musculus with 24 samples.

Results

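SLIM-seq compares RNA pulled down by an antibody against N6-methyladenosine (m6A) with the RNA it was taken from, and the contrast described here is how that enrichment changed between the mature egg and the fertilized egg. Enrichment is the ratio of immunoprecipitated RNA (IP) to input RNA. The change is the enrichment in late 1-cell (L1C) embryos minus that in metaphase II (MII) oocytes, on the log2 scale. The contrast rests on 12 of the 24 samples of the series, chosen by their labels: 3 input and 3 IP libraries from MII oocytes, and 3 input and 3 IP libraries from L1C embryos. No animal carried a transgene or a knockout. Oocytes came from superovulated B6D2F1 females, 8 weeks of age, 14 to 16 h after hCG, and were freed of cumulus cells with hyaluronidase. L1C embryos came from such females mated with B6D2F1 males, were cultured in KSOM and were taken no later than 29 h after hCG. Each IP used 100 ng of total RNA and 0.5 µg of antibody. The labels number the replicates 1 to 3 in each group but do not say that they are separate collections of animals, so p-values measure the spread between these libraries, which may be partly technical.

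m6A is the most common internal base modification of mRNA. A nuclear complex around Mettl3 and Mettl14 writes it at adenosines in a short sequence context, of which GGACT (as DNA letters) is the best known form, often near stop codons and in long exons. The demethylases Fto and Alkbh5 can remove it, and proteins with a YTH domain and others read it and affect splicing, export, translation and decay. A mature oocyte is transcriptionally silent and lives on stored maternal mRNA. After fertilization the stored mRNA is translated, changes its poly(A) tails and is partly degraded while the zygotic genome starts to be transcribed. The RNA here was not fragmented and was primed with oligo-dT, so that enrichment belongs to a whole RNA and not to a site.

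Among the leading genes on spans of their own, transcripts hold the motif in both directions of change. The windows below are 25 bases around the GGACT nearest to the stop codon of each transcript, in the RNA sense and 5′ to 3′ on GRCm38, with the motif in capitals, and all coordinates given are on this build. The first 4 genes lost enrichment and the last 4 gained it.
Lrrfip2 (chr9:111219750-111219774, plus strand, 3′ UTR): ggacctggcaGGACTgcagaacggc
Ash2l (chr8:25817263-25817287, minus strand, 3′ UTR): agggtgggtgGGACTgcagcagtgc
Ddx11 (chr17:66150927-66150951, plus strand, 3′ UTR): cagaggcagtGGACTctagtgttca
Prpf3 (chr3:95844204-95844228, minus strand, coding sequence): ttgagtggtgGGACTcgtacatcat
Abtb2 (chr2:103717362-103717386, plus strand, 3′ UTR): ggatggagggGGACTgttatctgag
Mbtps1 (chr8:119508279-119508303, minus strand, 3′ UTR): gaactgaaggGGACTtgcgcggatg
Ern1 (chr11:106400218-106400242, minus strand, coding sequence): tggtcaagatGGACTggcgggagaa
Esrrb (chr12:86518878-86518902, plus strand, coding sequence): aggcgctgcaGGACTatgagctgag
A motif is a match of letters and not a measured site. Searched on the RNA strand of 1 transcript per gene, GGACT was found in 88.8% of 7634 mRNAs on spans of their own, in 94.8% of those with lower enrichment at L1C and in 94.0% of those with higher enrichment. The called transcripts were longer, with a median length of 3166 bases among the lower and 3456 among the higher, against 2526 among all tested. The density of the motif did not separate the classes: its median was 1.06 per kb of transcript among the lower, 1.05 among the higher and 1.06 among all tested.

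Enrichment changed for a minority of mRNAs, in both directions. Of 16163 mRNAs tested, 616 (3.81%) had higher and 813 (5.03%) had lower enrichment at L1C than at MII, by edgeR's quasi-likelihood test with a BH-adjusted p under 0.05 over 21950 genes of all types. Over all types 686 genes were higher (3.13%) and 923 lower (4.21%), 1609 in all (7.33%). The rest did not pass, which does not show that their enrichment was equal. The targets of the quantification were whole gene spans with their introns, so that a read in an intron counts toward its gene and reads where spans overlap can be given to either gene. Genes were therefore set apart by their spans. Among 7674 mRNAs whose span overlapped no other annotated gene, 249 (3.24%) were higher and 345 (4.5%) lower. Among 8489 that shared a span, 367 (4.32%) were higher and 468 (5.51%) lower. The counts of higher mRNAs were less stable than those of lower mRNAs. Without MII input replicate 2, MII IP replicate 1 or L1C IP replicate 1, the 616 became 390, 393 and 390, and the 249 became 160, 159 and 160, while the 813 lower mRNAs became 662 to 801 over all 12 libraries left out. With the replicate number within each stage as a block, the 616 became 270 and the 249 became 95. Under that block the 813 became 764 and the 345 became 322. Higher mRNAs were 43.1% of the called mRNAs, 54.1% when libraries were scaled to their size alone and 29.4% when only the 12 libraries were fitted. The median change of all mRNAs was 0.08 on spans of their own and 0.08 on shared spans. No spike-in reads were analysed, so a change common to all mRNAs cannot be seen, and each change is relative to the bulk of genes.

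The 2 classes on spans of their own started from opposite sides. The 345 lower mRNAs had a median log2 IP/input of 0.85 at MII (quartiles 0.36 and 1.51) and of -0.28 at L1C (-0.78 and 0.18). The 249 higher mRNAs had a median of -1.63 at MII (-2.12 and -1.06) and of -0.40 at L1C (-0.91 and 0.06). The library medians did not overlap: over the 3 IP libraries, each against the mean input of its stage, the median of the lower class was 0.79 to 0.89 at MII and -0.28 to -0.26 at L1C, and that of the higher class -1.56 to -1.45 and -0.43 to -0.42. Of the lower mRNAs, 254 were above input at MII, where 18.1% of all mRNAs on spans of their own were. At L1C, 53 of these 254 were still above input, 144 were not different from it and 57 were below. Another 71 went from no difference to below input, and 20 were below at both stages. Of the higher mRNAs, 235 were below input at MII, where 23.4% of all were. At L1C 122 of them were still below input, where 20.3% of all were, 108 were not different from it and 5 were above. A higher value was thus mostly a smaller depletion: 18 of the 249 were above input at L1C, where 16.0% of all mRNAs on spans of their own were. These states use the libraries of the contrast and describe it, and are no separate support.

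**Figure D1:**
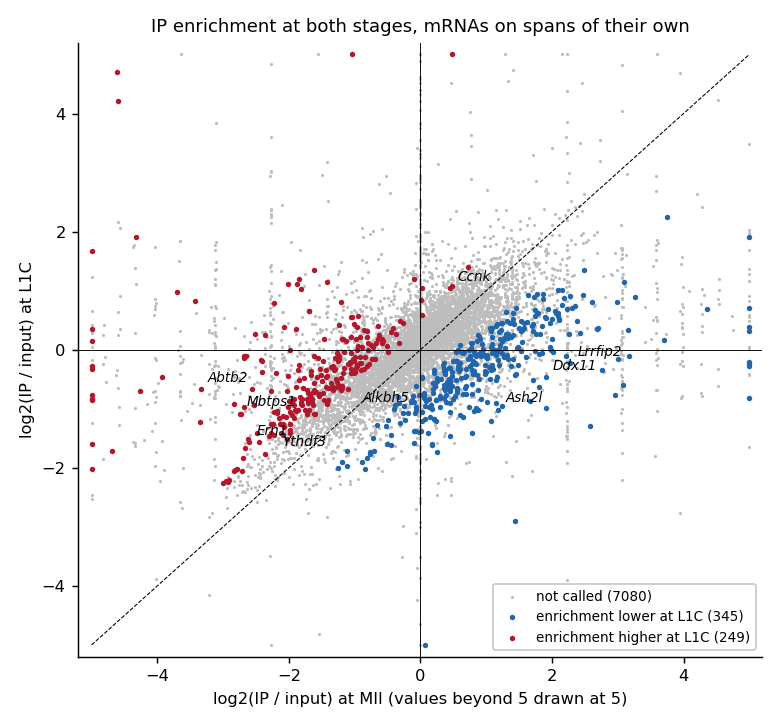
Each point is an mRNA on a span of its own, with log2(IP/input) at MII on the x axis and at L1C on the y axis, both from the edgeR fit. The 345 mRNAs with lower enrichment at L1C (blue) lie mostly to the right of 0 and below the dashed line of equal enrichment, and the 249 with higher enrichment (red) mostly to the left of 0 and above it.

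Lrrfip2 (chromosome 9, 111117592 to 111225668, plus strand), which encodes a partner of Flightless I in Wnt and Toll-like receptor signalling, was the leading loss on a span of its own. Levels are given in CPM, counts scaled to the TMM-normalised size of each library, in the order of the replicates. Lrrfip2 was at 22.5, 20.6 and 19.2 CPM in the MII inputs and 110.1, 97.8 and 95.5 in the MII IPs, and at 88.6, 78.5 and 83.5 in the L1C inputs and 69.9, 66.7 and 78.7 in the L1C IPs. The MII IPs were the highest of the 4 groups and the L1C IPs overlapped the L1C inputs. Lrrfip2 changed from a log2 IP/input of 2.28 to -0.22, by -2.50 (SE 0.15, edgeR adjusted p = 1.4e-08). Prpf3 (chromosome 3, 95830124 to 95855885, minus strand) encodes a protein of the U4/U6 snRNP of the spliceosome. Prpf3 had 23.8, 22.9 and 22.4 CPM in the MII inputs and 36.1, 39.4 and 44 in the L1C inputs, with 67.9, 59.3 and 63.1 in the MII IPs and 31.4, 29.7 and 28.6 in the L1C IPs. All MII IPs were above all MII inputs, and all L1C IPs below all L1C inputs. Prpf3 changed from a log2 IP/input of 1.46 to -0.41, by -1.87 (SE 0.15, edgeR adjusted p = 2.8e-07). Sbno2 (chromosome 10, 80056992 to 80105571, minus strand), which encodes a transcriptional coregulator, had inputs that overlapped between the stages. Sbno2 was at 7.8, 8.51 and 8.45 CPM in the MII inputs and 29.7, 28.5 and 28.3 in the MII IPs, and at 6.3, 9.66 and 7.57 in the L1C inputs and 4.89, 4.5 and 5.69 in the L1C IPs. The IPs did not overlap: all MII IPs were above all other libraries, and the L1C IPs below them all. Sbno2 changed from a log2 IP/input of 1.81 to -0.64, by -2.44 (SE 0.23, edgeR adjusted p = 1.4e-06).

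Ash2l (chromosome 8, 25815996 to 25847694, minus strand) encodes a core subunit of the complexes that methylate lysine 4 of histone H3. Ash2l had 439, 408 and 381 CPM in the MII inputs and 6652, 5582 and 5548 in the L1C inputs, with 905, 1073 and 813 in the MII IPs and 2348, 3390.5 and 3063 in the L1C IPs. Input and IP both rose after fertilization, the input more, and the order of input and IP turned over. Ash2l changed from a log2 IP/input of 1.18 to -1.01, by -2.20 (SE 0.20, edgeR adjusted p = 1.2e-06). Gucy1a2 (chromosome 9, 3532778 to 3894736, plus strand) encodes a subunit of soluble guanylate cyclase and behaved likewise. Gucy1a2 was at 12.3, 12.7 and 13.5 CPM in the MII inputs and 23, 25.4 and 22.1 in the MII IPs, and at 188, 185 and 180.1 in the L1C inputs and 76.3, 103 and 92.3 in the L1C IPs. The IPs were above the inputs in every MII library and below them in every L1C library. Gucy1a2 changed from a log2 IP/input of 0.87 to -1.02, by -1.90 (SE 0.16, edgeR adjusted p = 3.4e-07). Spans include introns here, and whether the rise of such inputs came from mature mRNA or from reads in introns cannot be told apart in these counts. Ddx11 (chromosome 17, 66123520 to 66152174, plus strand) encodes a DNA helicase of sister chromatid cohesion. Ddx11 had 14.3, 16.9 and 13.8 CPM in the MII inputs and 34.5, 36.9 and 46.8 in the L1C inputs, with 58.5, 54.6 and 55.5 in the MII IPs and 29.5, 31.2 and 24.7 in the L1C IPs. The MII IPs were the highest of the 4 groups. Ddx11 changed from a log2 IP/input of 1.90 to -0.47, by -2.37 (SE 0.22, edgeR adjusted p = 1.7e-06). The other 2 of the 8 leading mRNAs were Myh15 (chromosome 16, 49057486 to 49199104), a myosin heavy chain gene, which changed by -2.54 (SE 0.19, edgeR adjusted p = 1.1e-07), and Fam98a (chromosome 17, 75537086 to 75551946), which changed by -1.88 (SE 0.16, edgeR adjusted p = 4.7e-07). Both were above input at MII and below it at L1C. The 8 genes were named by a rule from 192 mRNAs on spans of their own that lost more than 1 on the log2 scale, had a mean of at least 50 counts and had IP ratios that did not overlap between the stages.

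**Figure D2:**
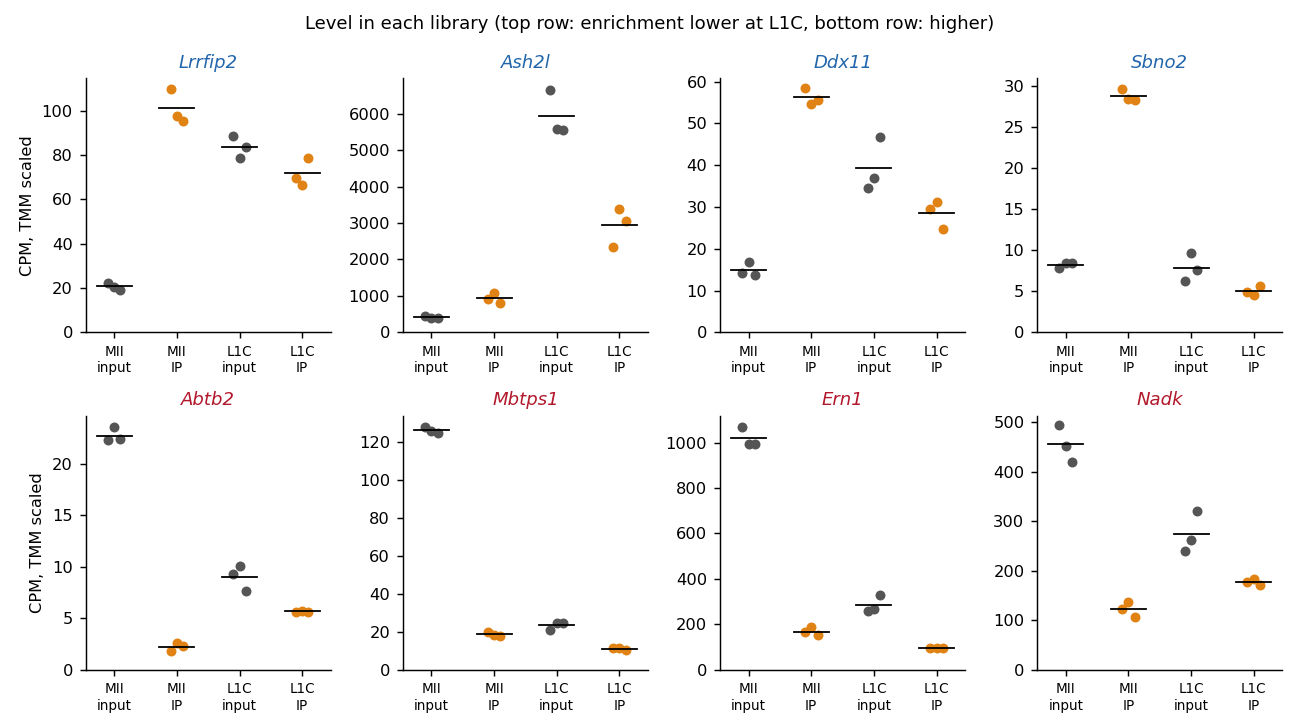
CPM in each of the 3 libraries of each group (points; inputs grey, IPs orange) with the group mean (line), for 4 mRNAs that lost enrichment (top row) and 4 that gained it (bottom row). In the top row the IP stands above the input at MII but not at L1C, and in the bottom row the IP stands far below the input at MII and closer to it at L1C.

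Among the mRNAs that gained enrichment, the leading ones were strongly depleted from the IP at MII. Abtb2 (chromosome 2, 103566310 to 103718423, plus strand), an ankyrin repeat and BTB domain gene, is the first. Abtb2 was at 22.3, 23.6 and 22.4 CPM in the MII inputs and 1.83, 2.59 and 2.28 in the MII IPs, and at 9.3, 10.1 and 7.69 in the L1C inputs and 5.65, 5.74 and 5.66 in the L1C IPs. The IP was below the input in every library of both stages, by more at MII. Abtb2 changed from a log2 IP/input of -3.34 to -0.67, by 2.67 (SE 0.24, edgeR adjusted p = 7.8e-07). Mbtps1 (chromosome 8, 119508156 to 119558735, minus strand) encodes the site-1 protease, which cleaves SREBP and Atf6. Mbtps1 had 128, 126 and 125 CPM in the MII inputs and 21.2, 24.5 and 24.5 in the L1C inputs, with 20.1, 18.3 and 18 in the MII IPs and 11.6, 11.2 and 10.4 in the L1C IPs. The input fell between the stages much more than the IP. Mbtps1 changed from a log2 IP/input of -2.74 to -1.08, by 1.66 (SE 0.15, edgeR adjusted p = 1.4e-06). Ern1 (chromosome 11, 106394650 to 106487852, minus strand) encodes Ire1, a sensor of unfolded proteins in the endoplasmic reticulum. Ern1 was at 1069, 992 and 994 CPM in the MII inputs and 165, 186 and 151 in the MII IPs, and at 258, 266 and 331 in the L1C inputs and 97.8, 96.1 and 96.4 in the L1C IPs. Again the IP stayed below the input at both stages. Ern1 changed from a log2 IP/input of -2.61 to -1.56, by 1.05 (SE 0.15, edgeR adjusted p = 0.00016). Nadk (chromosome 4, 155562378 to 155591001, plus strand) encodes NAD kinase, the source of NADP. Nadk had 494, 453 and 419 CPM in the MII inputs and 240.2, 263 and 321 in the L1C inputs, with 123, 137 and 107 in the MII IPs and 177, 184 and 172 in the L1C IPs. Here the IP was higher at L1C than at MII in every library while the input was lower. Nadk changed from a log2 IP/input of -1.89 to -0.63, by 1.26 (SE 0.20, edgeR adjusted p = 0.00042). The other 4 were Cmtm6 (chromosome 9, 114731116 to 114749344), a membrane protein gene, which changed by 1.11 (SE 0.15, edgeR adjusted p = 0.00011), Rbms2 (chromosome 10, 128131558 to 128180297), an RNA-binding protein gene, by 1.80 (SE 0.26, edgeR adjusted p = 0.00016), Sema6a (chromosome 18, 47235598 to 47368870), a semaphorin gene, by 1.58 (SE 0.23, edgeR adjusted p = 0.0002), and Esrrb (chromosome 12, 86361117 to 86521628), an orphan nuclear receptor gene, by 1.29 (SE 0.20, edgeR adjusted p = 0.00038). They were named from 62 mRNAs by the rule used for the losses. All 16 kept their direction and their call under every alternative tried.

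Few mRNAs gained enrichment above the input. Of the 18 on spans of their own that were above input at L1C, 3 had also been above input at MII, 10 had not differed from it and 5 had been below. Names from this group were chosen after their values were seen. Ccnk encodes cyclin K, a partner of the kinases of elongating RNA polymerase II. Its inputs had 66.7 ± 2.88 CPM (SD, n = 3) at MII and 30.8 ± 2.94 at L1C, and its IPs 91.1 ± 5.43 and 63.6 ± 4.27. Its enrichment rose by 0.60 on the log2 scale (SE 0.15, edgeR adjusted p = 0.016). Ppm1a, a protein phosphatase gene, had log2 IP/input of 0.72 at MII and 1.41 at L1C, a change of 0.69 (SE 0.18, edgeR adjusted p = 0.023). Nabp1, a single-strand DNA binding protein gene, went from -1.04 to 0.56, a change of 1.60 (SE 0.33, edgeR adjusted p = 0.0045). Several of the 18, among them Alcam and Rpl38, rested on means of fewer than 10 counts per library.

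Inputs and IPs were then set side by side. Among the 345 lower mRNAs on spans of their own, the input was higher at L1C than at MII for 265 (76.8%), where 30.4% of all such mRNAs were, and the IP was lower for 141 (40.9%, where 24.1% of all were), higher for 95 and not different for 109. Their median log2 change was 1.01 in the input and -0.20 in the IP. In these bulk libraries more RNA per egg and more eggs holding it cannot be told apart. Among the 249 higher mRNAs the input was lower at L1C for 167 (67.1%), where 27.0% of all were, and the IP was higher for 109 (43.8%, where 31.3% of all were), lower for 73 and not different for 67. Their median log2 change was -0.84 in the input and 0.25 in the IP. Of the lower mRNAs 61 had both a higher input and a lower IP, and of the higher mRNAs 27 had both a lower input and a higher IP. For the others the test called 1 side only or both in the same direction. The contrast contains the change of the input, so these counts follow in part from its arithmetic and cannot be read as a relation between level and methylation.

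**Figure D3:**
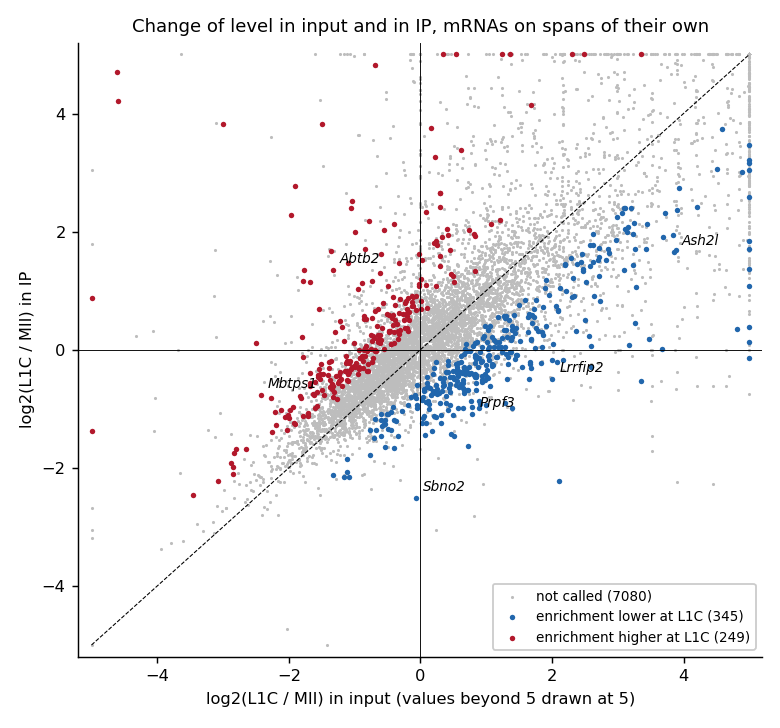
Each point is an mRNA on a span of its own, with log2(L1C/MII) in the input on the x axis and in the IP on the y axis, from the edgeR fit. Called mRNAs lie away from the dashed line of equal change: the 345 lower ones (blue) under it, mostly right of 0, and the 249 higher ones (red) over it, mostly left of 0.

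The late 2-cell (L2C) libraries are not in the contrast and give the enrichment of the same genes 1 stage later. They did enter the fit, where they shared in the filter, the scaling and the spread behind the calls. The 345 lower mRNAs had a median log2 IP/input of -0.35 at L2C, the 249 higher ones of -0.59, and all mRNAs on spans of their own of -0.01. By the test of IP against input at L2C, 168 of the lower (48.7%) and 142 of the higher (57.0%) were below input, where 26.2% of all were. Above input were 56 of the lower (16.2%) and 24 of the higher (9.64%), where 20.5% of all were. Both classes thus lay below input in median at L2C, as at L1C, although they had lain on opposite sides at MII. The calls were made from the MII and L1C ratios, so the opposite sides at MII follow in part from the calls. The L2C values are a description and no separate support.

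Gene lists were read by the count of called members beside the share over all mRNAs, 5.03% lower and 3.81% higher. Calls went with read depth: in the highest of 5 bins of mean counts 9.77% of mRNAs on spans of their own and 11.3% of those on shared spans were lower, and 5.21% and 5.59% higher. Calls also went with length, here among mRNAs on spans of their own with a mean of at least 200 counts. In the bin of the shortest coding sequences 2.16% were lower and 2.47% higher. In the 2 bins of the longest 13.9% and 12.9% were lower and 5.86% and 7.0% higher. Lists were not matched for depth or length. The median member had a mean of 477.5 counts among the helicases, 699.7 among small RNA pathway genes and 685.1 among spindle pole genes. The bin that holds these medians had 8.08% lower on spans of their own and 7.77% on shared spans. Its higher shares were 4.76% and 5.59%. The median was 1509.0 among deadenylation genes and 8856.5 among oocyte genes, both in the highest bin. Among DEAD and DEAH box helicases, 11 of 53 members lost enrichment (20.8%) and 1 gained it. Of the 11, 9 lay on spans of their own. Ddx11 acts on DNA and is in the list by its name. Ddx23 (chromosome 15, 98645134 to 98662894, minus strand) encodes the spliceosomal helicase Prp28. Ddx23 was at 2.58, 2.4 and 4.02 CPM in the MII inputs and 23, 17 and 18.4 in the MII IPs, and at 4.84, 4.27 and 5.63 in the L1C inputs and 6.71, 5.49 and 6.73 in the L1C IPs. The MII IPs were far above the other 3 groups. Ddx23 changed from a log2 IP/input of 2.70 to 0.36, by -2.34 (SE 0.30, edgeR adjusted p = 6e-05). Dhx8 and Dhx38, which act in late steps of splicing, changed by -1.11 (SE 0.17, edgeR adjusted p = 0.00033) and -0.76 (SE 0.18, edgeR adjusted p = 0.014). Ddx21, a nucleolar helicase, changed by -1.75 (SE 0.28, edgeR adjusted p = 0.00053), its neighbour on chromosome 10 and paralog Ddx50 by -1.10 (SE 0.16, edgeR adjusted p = 0.00017), Ddx1 by -1.54 (SE 0.23, edgeR adjusted p = 0.00022) and Ddx42 by -1.18 (SE 0.19, edgeR adjusted p = 0.0004). Ddx24, Ddx49 and Ddx19a lost their call when single libraries were left out: Ddx24 without any of MII input 1 and 2, MII IP 1, L1C input 3 and L1C IP 2 (log2 change -1.10 to -0.83), Ddx49 without any of MII input 1, L1C input 2 and L1C IP 1 and 2 (-1.20 to -0.85), and Ddx19a without L1C IP 2 (-0.68 to -0.50) and with no filter on low counts. The count of lower helicases was 8 to 13 under the 19 alternatives, and the median change of all 53 was -0.07. Without L1C input 1, 3 were higher, and 2 without MII IP 1. Ddx19b, the member that gained, changed by 1.27 (SE 0.19, edgeR adjusted p = 0.00032). Its span holds a microRNA gene and lies beside Ddx19a, a near copy, and reads of both may be split between them.

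Of the small RNA pathway genes 6 of 31 were lower (19.4%) and 0 higher; their median change was -0.17, and 1 was higher without L1C input 1. Dicer1 (chromosome 12, 104687742 to 104751952, minus strand) encodes the ribonuclease that makes microRNAs and siRNAs. Dicer1 had 280.1, 248 and 249 CPM in the MII inputs and 373, 313 and 315 in the L1C inputs, with 513, 412 and 535 in the MII IPs and 346, 336 and 279 in the L1C IPs. The MII IPs were above all other groups. Dicer1 changed from a log2 IP/input of 0.91 to -0.06, by -0.97 (SE 0.17, edgeR adjusted p = 0.0012). Drosha, its nuclear counterpart, changed by -1.70 (SE 0.22, edgeR adjusted p = 7.1e-05), while its mean input rose from 171 ± 5.33 to 1162 ± 248 CPM. The Tudor domain genes Tdrd1, Tdrd3 and Tdrd5 changed by -1.39 (SE 0.19, edgeR adjusted p = 8e-05), -0.81 (SE 0.15, edgeR adjusted p = 0.0023) and -1.63 (SE 0.22, edgeR adjusted p = 7.1e-05). Dgcr8, the partner of Drosha, changed by -0.81 (SE 0.21, edgeR adjusted p = 0.024) and lost its call without MII input 3, MII IP 2 or L1C IP 3 (log2 change -0.92 to -0.70). Of the 6, Dicer1 and Tdrd1 lay on spans of their own. At an unadjusted p under 0.05, 3 members were higher, and DESeq2 called 0.

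Spindle pole and centrosome genes changed in both directions, 7 of 33 lower (21.2%) and 3 higher (9.09%). All 7 lower members shared a span. The median change was -0.19 over the list and 0.21 over its 10 members on spans of their own, of which 2 were higher and 0 lower. Tacc3 (chromosome 5, 33658128 to 33678995, plus strand) encodes a spindle protein that binds clathrin and Chtog. Tacc3 was at 189.8, 161 and 169 CPM in the MII inputs and 1499, 1650.4 and 1261 in the MII IPs, and at 415, 393 and 529 in the L1C inputs and 722, 661 and 635 in the L1C IPs. IP exceeded input in every library of both stages, by more at MII. Tacc3 changed from a log2 IP/input of 3.08 to 0.59, by -2.49 (SE 0.19, edgeR adjusted p = 1.1e-07). Its span overlapped 1 other gene. The augmin subunits Haus6 and Haus8 changed by -1.12 (SE 0.24, edgeR adjusted p = 0.006) and -1.85 (SE 0.22, edgeR adjusted p = 2.2e-05), the gamma-tubulin complex gene Tubgcp2 by -1.77 (SE 0.18, edgeR adjusted p = 3.7e-06), Cdk5rap2 by -1.22 (SE 0.15, edgeR adjusted p = 3.1e-05), Sass6 by -1.45 (SE 0.25, edgeR adjusted p = 0.00091) and Cep63 by -0.82 (SE 0.19, edgeR adjusted p = 0.011). Of the gains, Cep192, which organises mitotic centrosomes, changed by 1.12 (SE 0.21, edgeR adjusted p = 0.002) on a span of its own. Cntrob changed by 0.73 (SE 0.22, edgeR adjusted p = 0.047), a call lost without any 1 of the 12 libraries other than L1C input 2 (0.56 to 0.86), with no filter on low counts, with the 12 libraries fitted alone and with the genes on spans of their own fitted alone. Tacc2 lies in the span of Fgfr2 and is described with it.

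**Figure D4:**
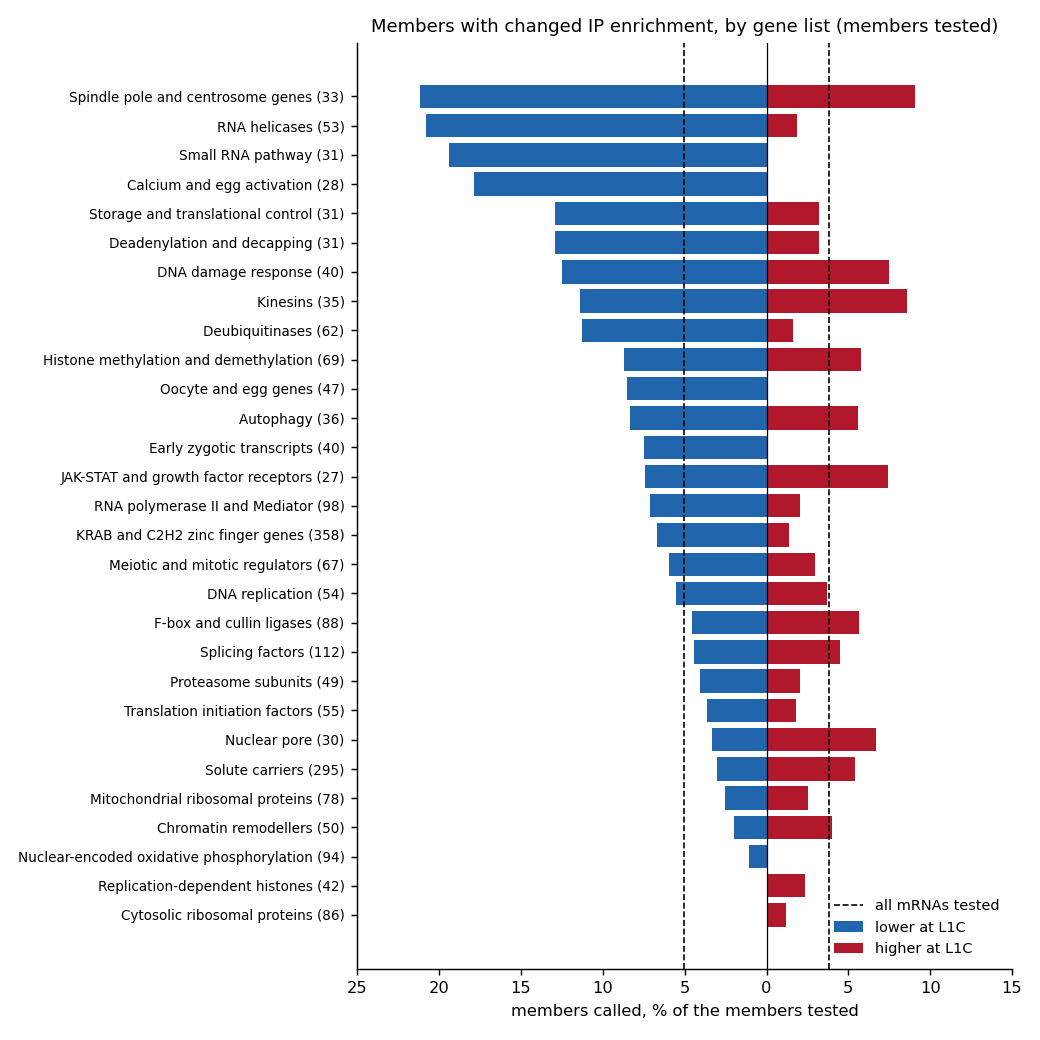
Percent of the tested members of each gene list that had lower (blue, to the left) or higher (red, to the right) enrichment at L1C, for the lists of at least 25 tested members that are reported here, with the number tested in parentheses. Dashed lines are the shares over all mRNAs tested, 5.03% lower and 3.81% higher, and spindle pole genes, helicases and small RNA pathway genes stand farthest beyond the left one.

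Oocyte genes, the egg's own specialised mRNAs, were mostly not called: 4 of 47 were lower (8.51%, below the 9.77% in the highest bin of counts) and 0 higher, with a median change of 0.15, and 1 was higher without L1C input 1. At an unadjusted p under 0.05, 6 were higher, and DESeq2 called 0. Bmp15 (chromosome X, 6314107 to 6320721, minus strand) encodes an oocyte growth factor and was read deeply. Bmp15 had 2734, 2824 and 2863 CPM in the MII inputs and 3515, 3072 and 3069 in the L1C inputs, with 6588, 6555 and 6178 in the MII IPs and 4042, 4145 and 3707 in the L1C IPs. The MII IPs were well above the 3 other groups. Bmp15 changed from a log2 IP/input of 1.20 to 0.30, by -0.90 (SE 0.14, edgeR adjusted p = 0.00033). Npm2, which decondenses sperm chromatin, shares a span and stayed above input at both stages, by a log2 IP/input of 2.57 at MII and 1.08 at L1C, a change of -1.49 (SE 0.18, edgeR adjusted p = 2.2e-05). Nlrp5 (Mater), of the subcortical maternal complex, changed by -1.20 (SE 0.23, edgeR adjusted p = 0.0024) on a shared span. Nlrp14 changed by -0.60 (SE 0.18, edgeR adjusted p = 0.049), a call lost without any 1 of the 12 libraries other than L1C input 2 and 3 (-0.70 to -0.42), when libraries were scaled to their size alone, with no filter on low counts, and when the genes on spans of their own were fitted alone.

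Of the deadenylation and decapping genes, which shorten poly(A) tails and open mRNAs to decay, 4 of 31 were lower (12.9%) and 1 higher (3.23%). Their median change was 0.24, and 0.05 to 0.31 under the alternatives, above the 0.08 of all mRNAs. Dcp1a (chromosome 14, 30479535 to 30527063, plus strand) encodes the activator of the decapping enzyme and gained enrichment. Dcp1a was at 2843, 2582 and 2482 CPM in the MII inputs and 312, 360.4 and 303 in the MII IPs, and at 720.0, 741 and 809.6 in the L1C inputs and 237, 236 and 234 in the L1C IPs. The IPs were below the inputs at both stages, and by more at MII. Dcp1a changed from a log2 IP/input of -3.02 to -1.68, by 1.34 (SE 0.15, edgeR adjusted p = 9.9e-06). Its span overlaps that of Cacna1d. Dcp2, the decapping enzyme itself, changed by -1.10 (SE 0.17, edgeR adjusted p = 0.00031), and the Ccr4-Not subunits Cnot4 and Cnot1 by -0.87 (SE 0.15, edgeR adjusted p = 0.00089) and -0.71 (SE 0.15, edgeR adjusted p = 0.0067). Parn, another deadenylase gene, changed by -0.58 (SE 0.15, edgeR adjusted p = 0.023) and lost its call without MII input 2, MII IP 1, L1C input 3 or L1C IP 3 (log2 change -0.67 to -0.52) and with no filter on low counts. Egg storage and translation factors had the same counts, 4 lower and 1 higher of 31, and only 2 lower without MII input 1, L1C input 2 or L1C IP 2. The 1 higher member was not called without any 1 of 9 libraries, while without L1C input 1 or 2 the deadenylation list had 2 higher. Ybx3, a cold shock domain protein gene, stayed far above input with log2 IP/input of 3.59 at MII and 2.63 at L1C, and changed by -0.96 (SE 0.24, edgeR adjusted p = 0.018), a call lost without MII input 1, L1C input 2 or L1C IP 2 (-1.13 to -0.85).

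Of 18 DNA methylation factors 3 were lower (16.7%) and 1 higher (5.56%), the latter not called without any 1 of 9 libraries. Dnmt1 (chromosome 9, 20907209 to 20959888, minus strand) encodes the maintenance DNA methyltransferase. Dnmt1 had 201, 216 and 243 CPM in the MII inputs and 201, 209 and 250.2 in the L1C inputs, with 865, 709 and 812 in the MII IPs and 298, 255 and 256 in the L1C IPs. The inputs overlapped between the stages while the IPs did not, and the L1C IPs lay just above the L1C inputs. Dnmt1 changed from a log2 IP/input of 1.85 to 0.29, by -1.56 (SE 0.17, edgeR adjusted p = 7.1e-06). Its span holds a microRNA gene. Chromatin remodellers had 1 lower (2.0%) and 2 higher (4.0%) of 50, with 4 lower without L1C input 1 and 0 to 2 higher by the library left out. Among histone methylation genes 6 of 69 were lower (8.7%) and 4 higher (5.8%), with Ash2l the first of the lower and Kdm3a, an H3K9 demethylase gene on a span of its own, the first of the higher at 1.13 (SE 0.23, edgeR adjusted p = 0.0032). Kdm3a was not called with the replicate number within each stage as a block (1.06). With each library left out in turn, 4 to 5 of the histone methylation genes were lower and 3 to 7 higher. The 4 were lower without MII input 1, and the 7 higher without MII IP 2. Nsd1 and Setdb1, on shared spans, changed by -0.89 (SE 0.14, edgeR adjusted p = 0.00056) and -0.76 (SE 0.16, edgeR adjusted p = 0.0048). Zfp genes, the C2H2 zinc finger genes named by number, had 24 lower (6.7%) and 5 higher (1.4%) of 358, and 20 to 36 lower and 1 to 11 higher under the alternatives. Instead of 5, 1 was higher without MII input 2 and 3 without MII IP 3, L1C IP 1 or L1C IP 2. Genes named Slc, mostly solute carriers, had 16 higher (5.42%) and 9 lower (3.05%) of 295. Under the alternatives 7 to 22 were higher and 4 to 12 lower. Instead of 16, 10 were higher without MII input 1 or MII IP 1 and 9 without L1C IP 1. Instead of 9, 5 were lower without MII input 2, MII IP 2 or L1C input 3 and 4 without MII input 3.

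Some lists stayed below the shares of all mRNAs in both directions. Cytosolic ribosomal protein genes had 0 lower and 1 higher of 86, nuclear genes of oxidative phosphorylation 1 lower and 0 higher of 94, and mitochondrial ribosomal protein genes 2 and 2 of 78. With single libraries left out, up to 3 ribosomal protein genes were lower (3 without L1C IP 3) and up to 2 higher, 2 oxidative phosphorylation genes were lower without MII input 3, and 1 mitochondrial ribosomal protein gene was higher without any library other than L1C input 1. These mRNAs were above input in median at both stages: 0.64 and 0.62 at MII and L1C for ribosomal proteins, and 0.52 and 0.53 for oxidative phosphorylation. At an unadjusted p under 0.05, 5 ribosomal protein genes were lower, while DESeq2 called 2, and 3 oxidative phosphorylation genes higher, while it called 0. The single gain, Rpl38, rested on a mean of 1 count per library and was not called without MII input 3. The 13 mRNAs of mitochondrial DNA had 0 members called in either direction by edgeR, 0 at an unadjusted p under 0.05 and 0 by DESeq2, though 1 was called higher with no filter on low counts, and a median log2 IP/input of 1.74 at MII and 1.86 at L1C. For mt-Cytb the change was 0.00 (SE 0.31, edgeR adjusted p = 1.0). Many ribosomal protein genes had few counts on their own spans, with a median of 18.1 per library over the list, so that little could be detected for them. Calls were also few among short mRNAs of any kind. In the bin of the shortest transcripts on spans of their own, 1.3% were lower and 0.781% higher. The lists of this paragraph were not matched for length, so their low counts may not be particular to them.

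Further lists gave the following counts. Calcium and egg activation genes had 5 lower (17.9%) and 0 higher of 28, with a median change of 0.06. Of the 5, only Atp2b1 lay on a span of its own. The phospholipase gene Plcb1, the calcium sensor Stim2 and the IP3 receptor gene Itpr2 were lower on shared spans. At an unadjusted p under 0.05, 2 were higher, and DESeq2 called 1 higher. Without L1C input 3, 1 was called higher by edgeR too. Deubiquitinases had 7 lower (11.3%) and 1 higher of 62, and 0 to 2 higher by the library left out. RNA polymerase II and Mediator genes had 7 lower (7.14%) and 2 higher of 98, with 6 higher without L1C input 1 and 1 without any 1 of 7 others. DNA damage response genes had 5 lower (12.5%) and 3 higher (7.5%) of 40. Meiotic and mitotic regulators had 4 lower (5.97%) and 2 higher of 67, or 1 higher without any library other than L1C input 1, and the lower ones were Bub1, Cdc25c, Anapc7 and Fzr1. On spans of their own lay 4 of the 7 lower deubiquitinases and 2 of the 7 lower RNA polymerase II and Mediator genes. So did 2 of the 5 lower DNA damage response genes and 1 of the 4 lower meiotic and mitotic regulators.

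The m6A machinery itself was mostly not called. Of 9 writer genes 1 passed, and 2 without L1C input 1. The 1 was Rbm15 (chromosome 3, 107325421 to 107333673), which guides the complex to its targets. Rbm15 was at 66.9, 74.8 and 83.9 CPM in the MII inputs and 21.8, 18.8 and 23.4 in the MII IPs, and at 38.4, 44.7 and 44 in the L1C inputs and 19.1, 19.6 and 28.1 in the L1C IPs. Depletion from the IP was smaller at L1C. Rbm15 changed from a log2 IP/input of -1.82 to -0.92, by 0.89 (SE 0.20, edgeR adjusted p = 0.0086). Mettl3 and Mettl14 changed by 0.17 (SE 0.20, edgeR adjusted p = 0.74) and -0.43 (SE 0.24, edgeR adjusted p = 0.34), Wtap by 0.37 (SE 0.34, edgeR adjusted p = 0.62), and Rbm15b was at 0 counts in all inputs of both stages, where no change can be given. Of the 2 erasers 0 were called, also at an unadjusted p under 0.05 and by DESeq2: Fto changed by 0.09 (SE 0.26, edgeR adjusted p = 0.95) and Alkbh5 by -0.02 (SE 0.19, edgeR adjusted p = 1.0). Alkbh5 was below input at both stages, with log2 IP/input of -0.99 and -1.01. Of 11 reader genes, Ythdc2 was lower and Igf2bp1 higher. Ythdc2 had 102, 105 and 108 CPM in the MII inputs and 823, 866 and 770.3 in the L1C inputs, with 113, 114 and 126 in the MII IPs and 335, 472 and 473 in the L1C IPs. In Ythdc2, which encodes a reader with a helicase domain, all L1C inputs were above all L1C IPs, and at MII input and IP were close. Ythdc2 changed from a log2 IP/input of 0.17 to -0.94, by -1.11 (SE 0.17, edgeR adjusted p = 0.0003). Igf2bp1 changed by 1.29 (SE 0.25, edgeR adjusted p = 0.0026) at a mean of 57 counts on a shared span. It was not called with the replicate number within each stage as a block (1.2). The cytoplasmic readers Ythdf1, Ythdf2 and Ythdf3 changed by -0.71 (SE 0.24, edgeR adjusted p = 0.086), 0.29 (SE 0.17, edgeR adjusted p = 0.39) and 0.45 (SE 0.19, edgeR adjusted p = 0.18), and the nuclear reader Ythdc1 by 0.10 (SE 0.24, edgeR adjusted p = 0.92). Ythdf3 was far below input at both stages, by -2.21 and -1.75.

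Early zygotic transcripts were read at both stages, and 3 of 40 lost enrichment (7.5%) while 0 gained it, or 1 without MII input 2, 2 at an unadjusted p under 0.05 and 0 by DESeq2. Dppa2 was at 15.6, 15.3 and 13.9 CPM in the MII inputs and 44.4, 46.8 and 39.9 in the MII IPs, and at 48, 33.5 and 34.8 in the L1C inputs and 49.1, 50.6 and 47.3 in the L1C IPs. These are the values of Dppa2 (chromosome 16, 48303908 to 48319723), which encodes a factor that prepares the zygotic genome for activation: all MII IPs were above all MII inputs, and at L1C input and IP were closer, with 1 input library among the IPs. Dppa2 changed from a log2 IP/input of 1.55 to 0.34, by -1.21 (SE 0.25, edgeR adjusted p = 0.0038). Zscan4c and Zfp352 changed by -3.16 (SE 0.58, edgeR adjusted p = 0.0018) and -1.89 (SE 0.39, edgeR adjusted p = 0.0047), from MII inputs of at most 0.659 CPM and 0.536 CPM. Without MII input 2 the change of Zscan4c was -5.20, and without MII input 3 it was -2.65. Zscan4c has near copies in its cluster, among which its reads may be split.

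Length went with the share of calls, and so did read depth. The mRNAs on spans of their own were ranked by each feature and cut into 5 bins of nearly equal size. In the highest bin of mean counts 9.77% were lower and 5.21% higher, and in the lowest bin 0.52% and 1.36%. Among the 3232 with a mean of at least 200 counts, 8.85% were lower and 4.92% higher, and the bins below were made within these. The lower share was 3.70% in the bin of the shortest transcripts and 10.7% in that of the longest, and the higher share 1.23% and 7.88%. The higher share also followed the 3′ UTR, from 1.86% in the bin of the shortest to 8.07% in that of the longest, while the lower share was 9.16% and 9.32%. The lower share followed the coding sequence, from 2.16% in the bin of the shortest to 13.9% and 12.9% in the 2 bins of the longest, and the higher share rose with it too, from 2.47% to 7.00%. By the density of GGACT the lower share was 7.42% in the lowest bin, 10.4% in the middle one and 8.06% in the highest, and the higher share 4.02%, 6.98% and 3.10%. By GC content the lower share was 6.35%, 11.0% and 7.75%, and the higher share 4.02%, 5.58% and 3.41%. The median change in each bin of transcript length lay between 0.06 and 0.10. The enrichment itself was lower for longer transcripts at both stages. Its median log2 IP/input was 0.37 at MII and 0.41 at L1C in the bin of the shortest, and -0.36 and -0.34 in that of the longest. These features vary together across genes, and genes are not independent replicates.

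Shared spans need their own reading. Of the 468 lower mRNAs that shared a span, 268 had a partner that was tested, and for 20 of these a partner was called higher and for 15 a partner was called lower. Of the 367 higher ones, 205 had a tested partner, and of these 26 had one called lower and 9 one called higher. Of all 5017 mRNAs that shared a span and had a tested partner, 3.47% had a partner called higher and 6.12% one called lower. To see what a change of assignment between overlapping genes can do, counts were summed over each cluster of overlapping spans before the fit, an alternative chosen after the data were seen. Of the 468 lower mRNAs, 365 lay in clusters that were lower as a whole, 98 in clusters that were not called and 5 in clusters called higher. Of the 367 higher ones, 269 lay in clusters that were higher, 91 in clusters not called and 7 in clusters called lower. A cluster sum holds the counts of the called mRNA itself, so these counts follow in part from the calls. Of all 7088 clusters of 2 or more spans tested, 440 were lower and 384 higher.

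The leading gains on shared spans all lay in the span of 1 gene. Fgfr2 (chromosome 7, 130162451 to 133123350, minus strand) encodes a fibroblast growth factor receptor, and its annotated span in the deposited targets overlaps 70 other spans. Fgfr2 had 156, 157 and 135 CPM in the MII inputs and 2027, 1879 and 1705 in the L1C inputs, with 139, 126 and 166 in the MII IPs and 281, 423 and 376 in the L1C IPs. Its L1C inputs were far above the 3 other groups. Fgfr2 changed from a log2 IP/input of -0.06 to -2.38, by -2.32 (SE 0.21, edgeR adjusted p = 1.2e-06). Inside it, Ate1 (chromosome 7, 130391493 to 130520369), the arginyltransferase gene, and Tacc2 (chromosome 7, 130577438 to 130764785), a centrosomal gene, behaved in the opposite way. Ate1 was at 39.4, 35.5 and 32 CPM in the MII inputs and 37.2, 39.5 and 39.3 in the MII IPs, and at 0, 0 and 0 in the L1C inputs and 27.4, 24.1 and 27 in the L1C IPs. Tacc2 had 117, 122 and 117 CPM in the MII inputs and 0, 0 and 0 in the L1C inputs, with 60.5, 61.5 and 53 in the MII IPs and 31.6, 21.5 and 27.4 in the L1C IPs. Both were at 0 counts in all 3 L1C inputs and were present in the other 9 libraries. Against 3 counts per library as the floor, the L1C IP of Ate1 was at least 143-fold and that of Tacc2 at least 147-fold higher than the input. edgeR adjusted p for the change was 8.4e-10 for Ate1 and 8.3e-09 for Tacc2, and the fitted change is no size for a group at 0. Nsmce4a (chromosome 7, 130532526 to 130573118, minus strand), a gene of the Smc5/6 complex, had few counts in the same inputs. Nsmce4a was at 34.3, 29.1 and 31.5 CPM in the MII inputs and 38.3, 38.8 and 34.9 in the MII IPs, and at 3.05, 1.85 and 2.97 in the L1C inputs and 35.6, 32.7 and 29.6 in the L1C IPs. The 3 inputs of L1C were below all other libraries. Nsmce4a changed from a log2 IP/input of 0.24 to 3.63, by 3.40 (SE 0.22, edgeR adjusted p = 1.8e-08). Of 21 mRNAs tested in the cluster, 10 were higher and 1, Fgfr2, was lower. Htra1, Abraxas2 and Zranb1 were also at 0 in all L1C inputs, though their MII inputs held a mean of more than 50 counts.

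Summed over its 71 spans, the cluster had 2519.8, 2249 and 2057 CPM in the MII inputs and 1527, 1813 and 1467 in the MII IPs, and 5014, 4663 and 4894 in the L1C inputs and 2256, 2699 and 2381 in the L1C IPs. In that sum the log2 change was -0.48 (SE 0.16, edgeR adjusted p = 0.059), below 0 and not called. The share of the counts of the cluster that Fgfr2 held was 6.48% in the MII inputs and 38.0% in the L1C inputs, and 8.79% and 14.8% in the IPs of these stages. The loss of Fgfr2 and the gains of the genes inside it thus did not add up to a gain for this stretch of chromosome 7 (130162451 to 133124354, GRCm38).

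**Figure D5:**
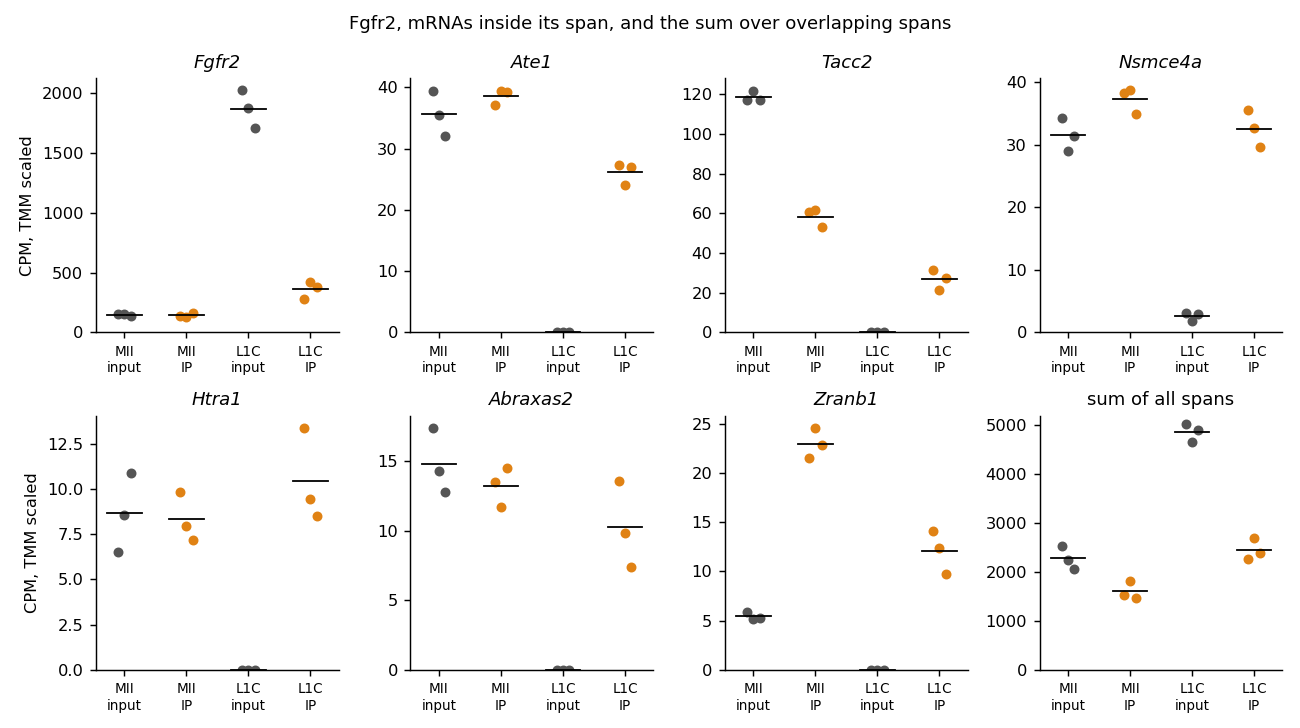
CPM in each of the 3 libraries of each group (points; inputs grey, IPs orange) with the group mean (line), for Fgfr2, 6 mRNAs inside its span and the sum over all 71 overlapping spans. Ate1, Tacc2, Htra1, Abraxas2 and Zranb1 are at 0 in the L1C inputs, where Fgfr2 is at its highest, and the sum shows no such gap.

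The leading losses on shared spans lay on other chromosomes. Ifit1bl2 (chromosome 19, 34617049 to 34640743, minus strand), of the interferon-induced Ifit family, overlaps 1 other gene. Ifit1bl2 had 169, 175 and 178 CPM in the MII inputs and 941, 875 and 802 in the L1C inputs, with 596, 536 and 594 in the MII IPs and 749.6, 741 and 711 in the L1C IPs. The MII IPs were above the MII inputs in every library and the L1C IPs below the L1C inputs. Ifit1bl2 changed from a log2 IP/input of 1.72 to -0.25, by -1.97 (SE 0.14, edgeR adjusted p = 5.2e-08). The family has near copies beside it, among which reads may be split. Reps2 (chromosome X, 162411954 to 162643649, minus strand) encodes a protein of endocytosis and Sycp1 (chromosome 3, 102818499 to 102936100) one of the synaptonemal complex of meiosis. Reps2 was at 42.9, 39.8 and 35.9 CPM in the MII inputs and 77.8, 81 and 85.5 in the MII IPs, and at 541, 568 and 482 in the L1C inputs and 179, 241 and 228 in the L1C IPs. Sycp1 had 41, 40.2 and 40.7 CPM in the MII inputs and 473, 431 and 410.1 in the L1C inputs, with 129, 135 and 129 in the MII IPs and 186, 262 and 238 in the L1C IPs. In both, IP exceeded input in all MII libraries and fell below it in all L1C libraries, and the L1C inputs were the highest of the 4 groups, as for Fgfr2. Their log2 changes were -2.34 (SE 0.16, edgeR adjusted p = 5.2e-08) and -2.63 (SE 0.19, edgeR adjusted p = 6.6e-08).

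Fewer ncRNAs than mRNAs passed. Of 5787 ncRNAs tested, 180 were called (3.11%), 110 lower (1.9%) and 70 higher (1.21%). On spans of their own, 20 of 1197 lincRNAs were lower and 10 higher, and of 844 processed pseudogenes 12 and 8. Gm38025 (chromosome 3, 31341012 to 31345280, plus strand), a lincRNA, was the leading loss. Gm38025 was at 347, 349.7 and 365 CPM in the MII inputs and 539, 589 and 539 in the MII IPs, and at 3973, 3193 and 3408 in the L1C inputs and 1654, 2263 and 1988 in the L1C IPs. Its order of input and IP turned over as in Ash2l. Gm38025 changed from a log2 IP/input of 0.65 to -0.84, by -1.49 (SE 0.17, edgeR adjusted p = 1.9e-05). Gm18774, an unprocessed pseudogene, rose in the L1C inputs to 549.8, 529.6 and 362 CPM, from 22.8, 22.9 and 22.3 CPM in the MII inputs, and it changed by -2.20 (SE 0.31, edgeR adjusted p = 0.00015). Reads of a pseudogene and of its source gene may be split. The leading gains were Gm9027, a processed pseudogene, at 1.07 (SE 0.23, edgeR adjusted p = 0.0068) and the lincRNA A330035P11Rik at 1.43 (SE 0.33, edgeR adjusted p = 0.01).

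Total estimated counts of the 12 libraries were 17043140 to 34455568. Oocyte markers were present in every library, 12 of 12 with more than 3 counts, at a summed TPM of 31400 to 32900 in MII inputs and 6940 to 7830 in L1C inputs. 2-cell markers summed to 227 to 275 TPM in MII inputs and 306 to 398 in L1C inputs. Cumulus and granulosa markers summed to 15.9 to 17.3 TPM in MII inputs and 7.65 to 7.90 in L1C inputs, with 4 and 2 of 20 at 0, and sperm markers to 59.5 to 63.0 and 31.4 to 38.9 TPM, with 5 and 3 of 12 at 0, Prm1 among them. Their part in the results was not tested, and edgeR called 0 of 13 cumulus and 0 of 7 sperm markers that could be tested, with 1 cumulus marker lower, 1 higher and 1 sperm marker higher at an unadjusted p under 0.05 and DESeq2 not counted for these lists. Genes of mitochondrial DNA held 0.0839% to 0.208% of the counts in inputs and 0.268% to 0.680% in IPs.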

How the data were processed

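Whole RNA from MII oocytes and L1C embryos was measured with and without m6A immunoprecipitation (3 libraries per group). The authors deposited estimated counts from kallisto for 55471 gene spans of GRCm38, introns included, with TPM beside them; reads had passed Trimmomatic, and HISAT2 and featureCounts are also named in the submitters' processing notes, without versions. The TPM values the authors deposited are divided by span length and served for marker sums. The labels and the methods differ on whether the library kit keeps the strand, so counts were not read as stranded.

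Estimated counts were rounded and fitted with edgeR 4.0.16 in R 4.3.3 (TMM scaling, filterByExpr, glmQLFit and glmQLFTest, no covariate) over the 18 libraries of MII, L1C and L2C, and the contrast used 12 of them. P values were adjusted by Benjamini-Hochberg over 21950 genes, and a gene was called at an adjusted p under 0.05. CPM are counts scaled by TMM library size, and ratios of single libraries used a pseudocount of 0.1 CPM. Protein-coding genes are mRNAs and all other types ncRNAs. Spans overlapping by 1 base or more on either strand, by GENCODE M21, were set apart as shared. Transcript sequences, 1 per gene, were taken from GRCm38.p6.

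Named genes were those called with a log2 change beyond 1, a mean of at least 50 counts and IP ratios that did not overlap between the stages: the 8 of smallest P in each direction on spans of their own, 3 on shared spans and 2 ncRNAs, with the leading member of each list in each direction and all m6A genes. Other list members named were chosen after their values were seen. The members and lists were chosen with earlier results of these data known. The fit was tested on simulated data. Total estimated counts were 17043140 to 34455568 per library. Alternatives were DESeq2 1.42.0, other scalings, no filter, the 12 libraries alone, replicate blocks, other definitions of overlap, genes on spans of their own alone, a log2 change beyond 1 and each library left out. The sum over overlapping spans was chosen after the data were seen. Python 3.11.15, pandas 2.3.3, numpy 2.4.6, scipy 1.17.1 and matplotlib 3.10.9 were used for counts and plots. L2C libraries entered the fit, and the other samples of the series were not used here. Results for 1 gene list and 1 gene are not reported here.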

Additional observations from a re-analysis of the deposited data

Results flagged for a closer look

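Some mRNAs changed sides between the stages, each side by its own test of IP against input and the change by the test of the difference. On spans of their own, 57 mRNAs were above input at MII and below it at L1C, and 5 were below at MII and above at L1C. On shared spans the counts were 91 and 13. Among the genes named by the rule, the log2 change was -2.54 for Myh15, -1.87 for Prpf3, -1.90 for Gucy1a2, -1.88 for Fam98a, -2.20 for Ash2l, -2.44 for Sbno2 and -2.37 for Ddx11, all on spans of their own. It was -2.34 for Reps2 and -2.63 for Sycp1 on shared spans, and -1.49 for the lincRNA Gm38025. Tacc2 went the other way, with a fitted 13.38 that is no size because its L1C inputs were at 0 counts, and it lies in the span of Fgfr2.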

How the results depend on the processing

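Under the fits listed here 0 mRNAs were called in the opposite direction. The count of mRNAs with higher enrichment was less stable than that of mRNAs with lower enrichment. Fitting the 12 MII and L1C libraries alone gave 395 higher mRNAs in place of 616 (162 on spans of their own, 233 on shared spans) and 950 lower in place of 813. Library size scaling gave 877 higher and 744 lower, and moved the median change of all mRNAs from 0.08 to 0.15. DESeq2 gave 901 and 1069, of which 595 and 803 were called by edgeR too. Without a filter on low counts 298 ncRNAs were called in place of 180. Asking also for a log2 change beyond 1 left 293 higher and 512 lower mRNAs, 115 and 217 on spans of their own and 178 and 295 on shared spans. Where only tested genes counted as overlapping, 411 higher and 545 lower mRNAs had spans of their own and 205 and 268 shared one, and where only genes on the same strand counted, 460 and 587 and 156 and 226. These 2 settings and the log2 limit move counts by construction, and for the others the cause was not tested.

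With each library left out in turn, higher mRNAs numbered 390 to 600, 159 to 246 on spans of their own and 230 to 354 on shared spans. Without MII input 1, 242 on shared spans were higher in place of 367. Of 150 called genes among 192 named in the tables, 114 kept their call under every alternative, and 0 reversed.

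The study states that inputs and IPs were made from the same batches of RNA. The labels do not say which input belongs to which IP, and the main fit treated the libraries as unpaired. The replicate numbers did not show the pairing: same-number correlations of input and IP deviations were -0.201, -0.246 and 0.323 at MII and 0.251, -0.505 and -0.086 at L1C. MII input 3 correlated best with the IP of its own number (0.323, and 0.301 with IP 1), while the other 5 inputs did so with the IP of the next number, input 3 with IP 1: 0.548 and 0.329 at MII and 0.561, 0.78 and 0.266 at L1C. The labels do not give this shifted pairing, and 0 fits used it. With the number as a replicate block in the 12 libraries, 378 mRNAs were higher (147 on spans of their own, 231 on shared spans), and with the number within each stage as the block 270 (95 and 175). Under the latter block Igf2bp1 (log2 change 1.20), Kdm3a (1.06), A330035P11Rik (1.38), Cntrob (0.66) and Parn (-0.66) were not called, so that 0 m6A readers were higher, and with the number alone Cntrob (0.65) was not. Depth limits what could be called: few genes of low counts passed.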

Other observations

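The mRNAs on spans of their own that turned from above to below input held genes of several kinds that no list covered, chosen after their values were seen. Polr3a, the largest subunit of RNA polymerase III, changed by -1.82 on the log2 scale (SE 0.18, edgeR adjusted p = 3.2e-06), with inputs of 36.9 ± 3.08 CPM (SD, n = 3) at MII and 69.3 ± 9.57 at L1C and IPs of 66.3 ± 5.10 and 35.1 ± 2.21. Ubtf, which drives transcription of ribosomal RNA genes, changed by -1.08 (SE 0.18, edgeR adjusted p = 0.00076), and Nol9, a kinase of ribosomal RNA processing, by -1.91 (SE 0.19, edgeR adjusted p = 2.7e-06). Tsc1, a brake on mTOR signalling, changed by -2.05 (SE 0.21, edgeR adjusted p = 5.2e-06). Pcgf3, a Polycomb subunit, changed by -1.72 (SE 0.18, edgeR adjusted p = 7.4e-06), with inputs of 421 ± 32.3 CPM at MII and 4540.0 ± 360.0 at L1C.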
